A study of Mus musculus with 4 samples.

Results

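The muscle miRNAs miR-1 and miR-206 were described in 4 mouse hepatocarcinoma cell lines, as read by the probes named mmu-miR-1 and mmu-miR-206 on miRCURY glass slides, where short probes with locked nucleic acids bind mature miRNAs. These are 2 of the 417 probes that carry a mouse miRNA name, on an array of 2448 probe positions with 4 spots each. They were chosen by name, as muscle miRNAs with signal in hepatoma cells, so their presence above background was known beforehand and is not a finding. The lines were Hca-F, with the higher lymphatic metastasis ability, Hca-P, with the lower one, H22, with none, and Hepa1-6, also with none. Hca-F, Hca-P and H22 grow in suspension and Hepa1-6 is adherent. The labels give H22 as the origin of both Hca lines, which were grown for about 7 days in the abdominal cavity of 615-mice and cultured after collection from ascites, so host cells could be carried along, while Hepa1-6 came from a cell bank. How H22 itself was grown for this RNA is not given in the labels. No line was treated. There was 1 array per line, so no difference between 2 lines has a replicate check, and every ± below is an SD over 4 spots of that array.

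miR-1 and miR-206 are the classic myomiRs, miRNAs made mainly in heart and skeletal muscle under muscle transcription factors. They share a seed, the stretch of bases near the 5′ end that selects target mRNAs, and therefore share many predicted targets, MET among the known ones. Each is transcribed together with a miRNA of another seed: miR-1 with miR-133a and miR-206 with miR-133b. In liver cancer both are known mainly as miRNAs that restrain growth.

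The sequences of miR-206 and of miR-133b are shown because their hairpins lie on 1 transcript, while the probe of the first passed the detection minimum in every line and that of the second in none. This concerns detection only, since levels of different probes cannot be compared. Both are from RefSeq (GRCm38.p6), with the seed, bases 2 to 8, in capitals.
miR-206-3p: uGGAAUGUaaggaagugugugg
miR-133b-3p: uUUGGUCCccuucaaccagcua
The mature miR-206 lies at chr1:20679055-20679076 and the mature miR-133b at chr1:20682834-20682855, both on the plus strand. Their hairpins are 3686 bases apart, inside the long noncoding RNA gene Lincmd1. Mir1a-1, a gene of miR-1, and Mir133a-2 lie beside each other on chromosome 2, inside the noncoding host gene Mir1a-1hg.

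miR-1 was bright in all 4 lines. Its single spots, after subtraction of the local background, read 913, 2137, 1299 and 2164 intensity units in Hca-F and 598, 1466, 1017 and 1694 in Hca-P. In H22 they read 693, 628, 779 and 916, and in Hepa1-6 925, 1066, 1034 and 1036. Every spot lay above the detection minimum of 50 units. Divided by 1 factor per array (the median over 65 mouse and miRPlus probes at 50 units or more in all arrays, miRPlus being the maker's own sequences), the level of miR-1 was 5.02 ± 1.92 in Hca-F, 3.01 ± 1.23 in Hca-P, 2.05 ± 0.339 in H22 and 2.51 ± 0.153 in Hepa1-6. The order was therefore Hca-F, Hca-P, Hepa1-6, H22, and no 2 neighbours in it differed by more than 2 combined spot SDs. As levels, the spots of Hca-F lay above all spots of H22 and of Hepa1-6, while those of Hca-P overlapped with every other line. In intensity units the first Hca-F spot, at 913, lay below the fourth spot of H22, at 916, and below all spots of Hepa1-6. The share of all measured miRNAs with spots that do not overlap was not counted.

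miR-206 was also above the detection minimum in every spot and had another order of lines. Its spots read 344, 266, 314 and 342 units in Hca-F and 204, 193, 200 and 189 in Hca-P. In H22 they read 469, 205, 319 and 332, and in Hepa1-6 816, 471, 530 and 500. The levels were 0.975 ± 0.112 in Hca-F, 0.496 ± 0.0171 in Hca-P, 0.903 ± 0.295 in H22 and 1.43 ± 0.395 in Hepa1-6. Hca-P was the lowest line, with all 4 spots below every spot of the others, and Hepa1-6 the highest in the mean. Hca-F and H22, neighbours in the order, differed by 0.231 combined spot SDs. Hca-P and H22 differed by 1.38 and Hca-F and Hepa1-6 by 1.12, so these neighbours did not differ beyond 2 spot SDs either, although their spots did not overlap.

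**Figure D1:**
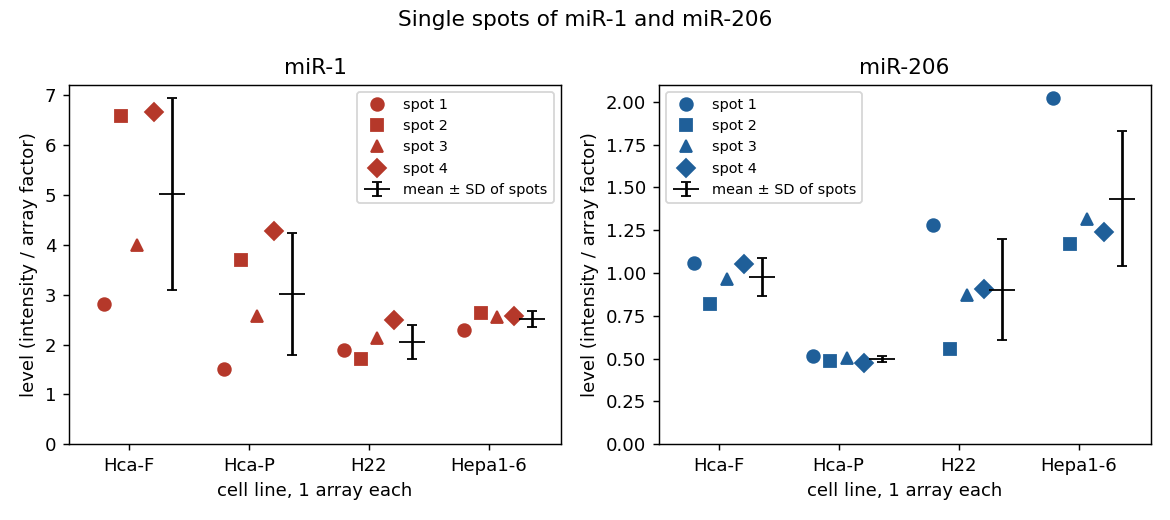
Level of each spot (background-subtracted intensity over the array factor) of miR-1, left, and miR-206, right, in the 4 lines, with the mean and SD over 4 spots in black. miR-1 is highest in Hca-F (5.02) and lowest in H22 (2.05); miR-206 is highest in Hepa1-6 (1.43) and lowest in Hca-P (0.496), where its spots nearly coincide.

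The error of the spots differed between probes and lines. For miR-1 the SD was 38.3% of the mean in Hca-F and 40.8% in Hca-P, but 16.5% in H22 and 6.10% in Hepa1-6. For miR-206 it was 11.5% in Hca-F, 3.44% in Hca-P, 32.6% in H22 and 27.6% in Hepa1-6. The spots of miR-1 rose and fell together in Hca-F and Hca-P: the first lay 0.83 and 1.00 below its probe mean on the log2 scale, and the fourth 0.41 and 0.50 above. Over 287 probes at 50 units or more in all arrays, the first spot had a median deviation of -0.09 in Hca-F and -0.16 in Hca-P, so the first spot of miR-1 was low by more than that of the typical probe. Over the spots of those 287 probes, deviations correlated at r = 0.706 between Hca-F and Hca-P and between H22 and Hepa1-6, and at 0.150 to 0.201 for the other 4 pairs of arrays. Spots are not replicates, and these correlations only describe the arrays. A fold taken spot by spot within such a pair of arrays has a smaller error, so these are given below as well.

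Hca-F and Hca-P share an origin and differ in metastasis ability. Both members were higher in Hca-F, by less than 2-fold. The level of miR-1 was 5.02 in Hca-F, against 3.01 in Hca-P, 1.67-fold higher, which was 0.879 combined spot SDs. Taken spot by spot, its log2 fold was 0.75 ± 0.13, with all 4 spots higher in Hca-F. The level of miR-206 was 0.975 in Hca-F, against 0.496 in Hca-P, 1.97-fold higher, which was 4.23 combined spot SDs. Its log2 fold taken spot by spot was 0.97 ± 0.17, again with 4 of 4 spots higher. The 4.23 rests in part on an unusually small spot SD of miR-206 in Hca-P, 3.44% of the mean. On that array 0.348% of 287 probes had a lower one, and the median was 19.1%. Neither member passed 2-fold, and 36.5% of the 85 mouse miRNAs measured in either line did. The median log2 fold over those 85 was 0.45 under this scaling. Relative to that median, miR-1 stood 0.29 and miR-206 0.53 higher on the log2 scale. With all capture probes setting the factor, the log2 folds were 0.24 for miR-1 and 0.48 for miR-206.

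Against H22, the line of origin, miR-1 had the higher level in both Hca lines, while miR-206 was about level in Hca-F and lower in Hca-P. All these differences were within 2 combined spot SDs. miR-1 stood at 5.02 in Hca-F, against 2.05 in H22, 2.44-fold higher, which was 1.52 combined spot SDs. Its log2 fold of 1.29 was the 1 difference of miR-1 past 2-fold among the 6 pairs of lines, in a comparison where 32.6% of 95 miRNAs passed. It was 0.98 after quantile normalization and 0.45 with reference probes at 100 units or more, both short of 2-fold. miR-206 stood at 0.975 in Hca-F, against 0.903 in H22, a log2 fold of 0.11 that was within the spot SDs. In Hca-P, miR-1 was at 3.01, against 2.05 in H22, a log2 fold of 0.55 with 3 of 4 spots higher, or 0.752 combined spot SDs. miR-206 stood at 0.496 in Hca-P, against 0.903 in H22, a log2 fold of -0.86 with all 4 spots lower, or 1.38 combined spot SDs. Neither passed 2-fold, and 50% of 98 miRNAs did, with a median log2 fold of -0.62, so miR-1 stood 1.17 above and miR-206 0.25 below it on the log2 scale. With reference probes at 100 units or more, the log2 fold of miR-1 between Hca-P and H22 was -0.0019.

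Against Hepa1-6, the adherent line, miR-206 had the lower level and miR-1 the higher level in both lines with metastasis. Of these differences, only that of miR-206 in Hca-P was beyond 2 combined spot SDs. The share of all measured miRNAs beyond 2 combined spot SDs was not counted for any pair of lines. miR-1 stood at 5.02 in Hca-F, against 2.51 in Hepa1-6, a log2 fold of 1.00 (2.0-fold, just short of the threshold, which 37% of 81 miRNAs passed), or 1.30 combined spot SDs. It was 0.15 after quantile normalization and 0.41 with reference probes at 100 units or more. miR-206 stood at 0.975 in Hca-F, against 1.43 in Hepa1-6, a log2 fold of -0.56 with no spot higher in Hca-F, or 1.12 combined spot SDs. The median log2 fold over those 81 miRNAs was 0.40, with miR-1 0.60 above it and miR-206 0.96 below it. In the same pair, all 4 spots of miR-1 were higher in Hca-F after division by the array factor. In intensity units the first spot was not, at 913 in Hca-F against 925 in Hepa1-6. In Hca-P, miR-1 was at 3.01, against 2.51 in Hepa1-6, a log2 fold of 0.26 within the spot SDs, which turned to -0.71 after quantile normalization. miR-206 stood at 0.496 in Hca-P, against 1.43 in Hepa1-6, 2.89-fold lower in Hca-P, which was 2.37 combined spot SDs. This was the 1 difference of miR-206 past 2-fold, and 56.2% of 89 miRNAs passed in that comparison, with a median log2 fold of 0.07. H22 was lower than Hepa1-6 in both, with log2 folds of -0.29 for miR-1 and -0.67 for miR-206, and in neither did a spot read higher in H22. Past 2-fold there were 37% of 92 miRNAs and neither member. The median log2 fold over those 92 was 0.31, with miR-1 0.60 and miR-206 0.97 below it. With a factor from the 75th percentile of mouse probes both members passed, at -1.17 for miR-1 and -1.55 for miR-206, and after quantile normalization miR-206 did, at -1.24.

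**Figure D2:**
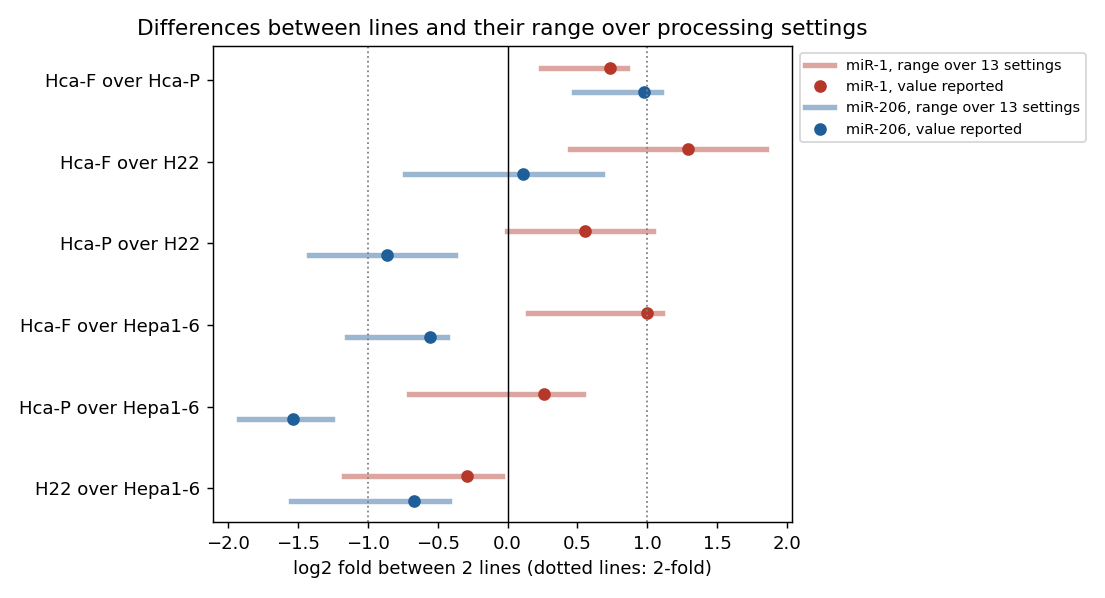
Log2 fold of miR-1 (red) and miR-206 (blue) for each pair of lines, the first-named over the second, as points, with bars for the range over 13 processing settings and dotted lines at 2-fold. miR-206 is below 0 in the 3 comparisons that set a line against Hepa1-6 and in Hca-P over H22 under each setting; the bars of miR-1 for Hca-P over H22 and Hca-P over Hepa1-6 reach both sides of 0.

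The difference between the log2 folds of the 2 probes does not depend on the array factor, since both are divided by it. For Hca-P over Hepa1-6 miR-1 exceeded miR-206 by 1.79 (3.47-fold), with a spot error of 0.72, and for Hca-F over Hepa1-6 by 1.55 (2.94-fold), with a spot error of 0.71. Both were beyond 2 spot errors. For Hca-P over H22 the gap was 1.42 ± 0.79 and for Hca-F over H22 1.18 ± 0.78, both within 2 spot errors. For the other 2 pairs of lines the gap was -0.24 ± 0.83 for Hca-F over Hca-P and 0.38 ± 0.67 for H22 over Hepa1-6. Each spot error combines the spot SDs as if the arrays were independent. In these 2 pairs of arrays the spots deviated together, so the spot error is overstated there. It therefore does not show whether these 2 gaps are within spot noise. Taken spot by spot, the log2 folds of H22 over Hepa1-6 were -0.30 ± 0.24 for miR-1 and -0.69 ± 0.26 for miR-206. Quantile normalization, which is not a single factor, brought both gaps of Hca lines over Hepa1-6 within 2 of the same spot errors. They were 0.97 for Hca-P over Hepa1-6 and 1.05 for Hca-F over Hepa1-6. The median of spots brought that of Hca-F over Hepa1-6 within 2 spot errors too, at 1.38.

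By metastasis class, Hca-F and Hca-P were set against H22 and Hepa1-6, each line being 1 of 2 samples of its class. In limma across 103 mouse miRNAs at 50 units or more in at least 1 line, miR-1 had a log2 difference of 0.77 ± 0.74 (SE) and an adjusted p of 0.825. Its mean log2 level was 1.96 in the lines with metastasis and 1.18 in those without. The classes did not overlap here, but did under 4 of 12 alternatives, where Hepa1-6 lay above Hca-P. How many of the 103 miRNAs have classes that do not overlap was not counted, so the separation cannot be called particular to miR-1. miR-206 had a limma log2 difference of -0.71 ± 0.82 (SE) and an adjusted p of 0.839, with mean log2 levels of -0.52 in the lines with metastasis and 0.19 in those without, and overlapping classes, as under 8 of 12 alternatives. Neither passed the threshold of 0.05, which 1.94% of the 103 passed. Because 3 of the 4 lines share an origin they are not independent, and a p-value here covers the spread among these 4 arrays and no more. Arrays whose spots deviated together also fall into the same 2 classes, so class and array pair cannot be told apart.

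The other muscle miRNAs stayed under the detection minimum. Of the list of miR-133a, miR-133b, miR-208, miR-499 and miR-486, a set with roles in heart, skeletal muscle or red cells, 5 probes were on the array and none reached 50 units in any line. miR-133a, made with miR-1, read 2.75 units in Hca-F, 11.2 in Hca-P, 6.75 in H22 and 1.75 in Hepa1-6. miR-133b, made with miR-206, read 8.5 units in Hca-F, 7.75 in Hca-P, 6.75 in H22 and 2.5 in Hepa1-6. Its brightest single spot on any array was 26 units, below every spot of miR-206. miR-208, the miRNA of cardiac myosin genes, reached 10.2 units at most, miR-499, also of a myosin gene, 6.25 and miR-486 7.5. The 5 probes summed to 19.5 units in Hca-F, 43 in Hca-P, 35 in H22 and 11.5 in Hepa1-6. The 7 negative control probes read at most 8 units in Hca-F, 6.75 in Hca-P, 8 in H22 and 2.75 in Hepa1-6, and the median mouse probe read 7.5, 11, 11 and 3.5 units in the same lines. Above the brightest control of the array were 1 of the 5 in Hca-F, 4 in Hca-P, 1 in H22 and 1 in Hepa1-6. miR-133a was above it in Hca-P and miR-133b in Hca-F and Hca-P, by a few units at most. Fewer cells of a type and less RNA per cell cannot be told apart in such bulk samples.

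Markers of other cell types were mostly under the detection minimum too, some of them well above the controls. miR-122, the main hepatocyte miRNA, read 12.2 units in Hca-F, 19.2 in Hca-P, 22.2 in H22 and 33 in Hepa1-6, so this defining marker of the labelled tissue was under the minimum in every line, though above the brightest negative control in each. Of 5 hepatocyte probes 1 reached the minimum, miR-21, in H22 (72.8 units). The leukocyte list, relevant to cells from ascites, had 1 of 6 probes at the minimum, miR-142-5p in Hca-P (59.2 units), and its summed signal was 83 units in Hca-F, 139 in Hca-P, 85 in H22 and 15.8 in Hepa1-6. miR-142-3p, from the same hairpin, read 32 units in Hca-P. Of 3 erythroid probes none reached it (miR-451 at most 8.25 units). Of 4 stromal and smooth muscle probes, miR-214 alone reached it, at 87.5 units in Hca-F, 27.5 in Hca-P, 70.5 in H22 and 97.5 in Hepa1-6, and miR-143 read 9.25 units at most. The part of any of these cell types in the signal of miR-1 or miR-206 was not tested.

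The array also carries 1595 probes marked as not designed for mouse, which show how bright a probe can be with no mouse miRNA named for it. They reached 50 units nearly as often as the 417 mouse probes: 16.4% against 17.7% in Hca-F, 15.9% against 18.2% in Hca-P, 17.9% against 21.1% in H22 and 17.4% against 17.0% in Hepa1-6. At or above the intensity of miR-1 were 58 of them in Hca-F (3.64%, 95% exact binomial interval 2.77 to 4.68), 68 in Hca-P (4.26%), 86 in H22 (5.39%) and 68 in Hepa1-6 (4.26%). At or above miR-206 were 8.34% in Hca-F (7.03 to 9.80), 9.78% in Hca-P, 8.53% in H22 and 6.21% in Hepa1-6. In every line at once, 46 were at least as bright as miR-1 and 95 as miR-206. These intervals cover counting error over probes only. The files do not name the targets of these probes, and whether mouse RNAs match them was not tested. Each member was read by 1 probe.

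**Figure D3:**
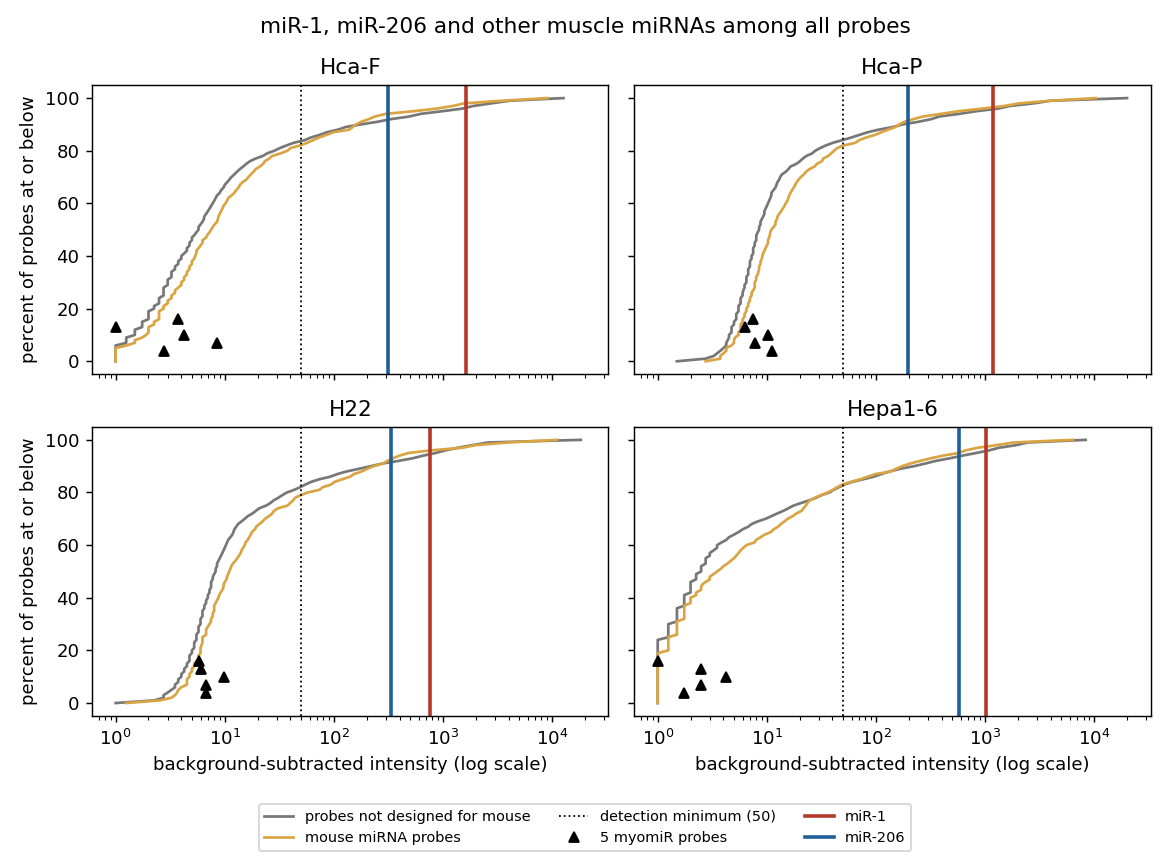
Percent of probes at or below each background-subtracted intensity (log axis, values under 1 drawn at 1) for 1595 probes not designed for mouse (grey) and 417 mouse probes (gold), 1 panel per line. Vertical lines mark miR-1 (red), miR-206 (blue) and the detection minimum of 50 (dotted); triangles mark the other 5 myomiR probes, at arbitrary heights, all of them left of the minimum.

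The pattern over the 4 lines was compared with that of the other measured miRNAs by the root mean square difference of log2 levels, each centred on its own mean. Nearest to miR-1 among 102 were miR-760 (0.08), miR-298 (0.14, from the brighter of its 2 probes) and miR-706 (0.22, under the minimum in 1 line). miR-760 was at 0.629 in Hca-F, 0.389 in Hca-P, 0.245 in H22 and 0.349 in Hepa1-6, the same order as miR-1. Nearest to miR-206 were miR-99b* (0.06, under the minimum in Hca-P), miR-669a (0.09) and miR-467b* (0.15). miR-669a, of the rodent-specific Sfmbt2 cluster, was at 0.645 in Hca-F, 0.283 in Hca-P, 0.593 in H22 and 0.938 in Hepa1-6. The 2 members lay 0.76 from each other, rank 57 of 102 for both, close to the median distance to the other miRNAs (0.74 from miR-1 and 0.71 from miR-206). Among the 342 probes not designed for mouse that reached 50 units in any line, 32 (9.36%) lay within 0.25 of miR-1, against 3 of 102 mouse miRNAs (2.94%). For miR-206 these were 28 (8.19%) and 6 (5.88%). Those 342 probes lay nearer in general, at a median distance of 0.57 from miR-1 and 0.60 from miR-206. The distance of 0.25 was chosen after the values were seen. Levels in these arrays spanned 2.44-fold for miR-1 and 2.89-fold for miR-206 over the 4 lines, ranges of 1.29 and 1.53 on the log2 scale, against a median range of 1.58 for the 54 miRNAs measured in all lines.

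**Figure D4:**
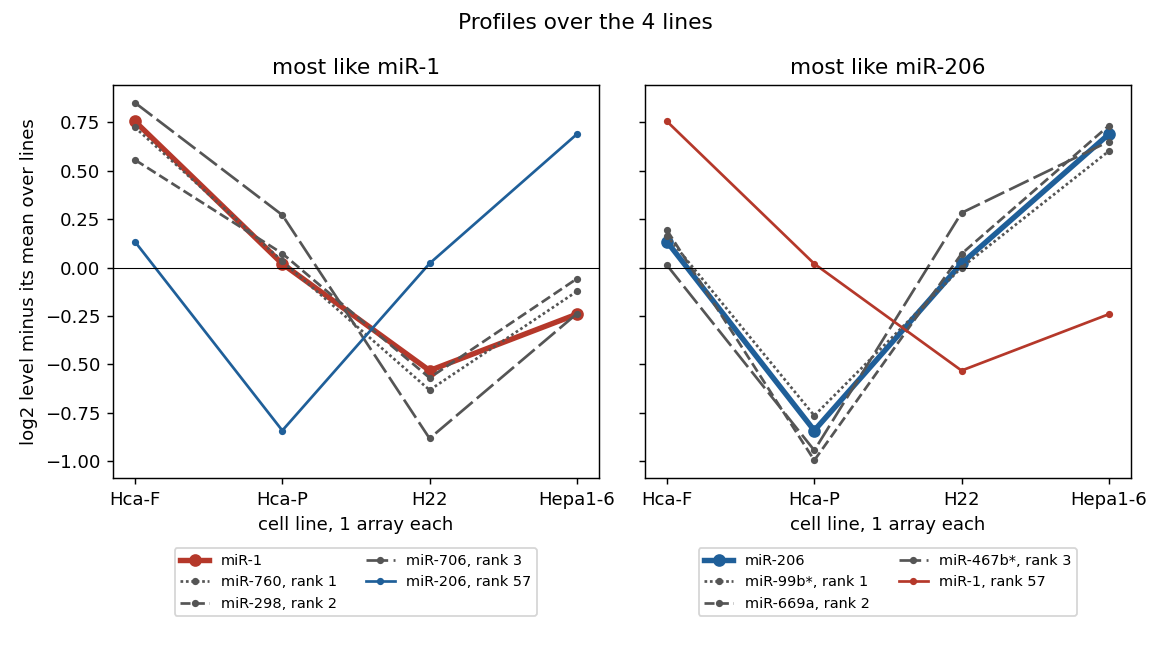
Log2 level minus its mean over the 4 lines for miR-1 (left) and miR-206 (right) with the 3 most like mouse miRNAs in grey and the other member in colour. miR-1 runs down from Hca-F to H22, while miR-206 dips in Hca-P and peaks in Hepa1-6; each ranks 57 of 102 in likeness to the other.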

How the data were processed

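RNA from TRIzol extraction carried the dye Hy3 and was hybridised to miRCURY arrays, which were read on a GenePix 4000B scanner, per the labels' protocols. The authors deposited linear intensity values of 3 kinds: foreground intensity per spot, intensity after background subtraction, and normalized intensity, which the labels describe as replicate spots averaged and divided by the median of miRNAs at 50 or more in all samples.

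From the spots, means were taken over 4 spots and divided by that factor (324.5 in Hca-F, 396.25 in Hca-P, 367 in H22, 403.75 in Hepa1-6), which returned the deposited values. Where 2 probes shared a name the brighter was kept, leaving 414 miRNAs. Values under 50 were set to 50. Classes were compared with limma 3.58.1 in R 4.3.3 (lmFit, eBayes with trend, Benjamini-Hochberg). The fit was also run on simulated data with independent noise and planted differences larger than those of the members. That run does not show its power for these members. With 1 array per line, the number of arrays limits the precision. Named were both members, all myomiR probes, the first and up to 2 further detected probes of other marker lists, and the 3 nearest profiles of each member. Alternatives covered scaling, detection minimum, background, spots and thresholds. Members and lists were chosen with earlier results of these data known.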

Additional observations from a re-analysis of the deposited data

How the results depend on the processing

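Over 12 alternatives to the scaling, detection minimum, background correction and spots used, 4 of 6 log2 folds of miR-1 and 5 of 6 of miR-206 kept 1 sign. The exceptions were miR-1 in Hca-P over H22 (-0.0019 to 1.04) and Hca-P over Hepa1-6 (-0.71 to 0.54) and miR-206 in Hca-F over H22 (-0.73 to 0.67). The number of pairs past 2-fold, 1 for each member, was less stable. For miR-1 it was 0 after quantile normalization, with a minimum of 100 or at 3-fold, 2 without spot 1 or without spot 3, and 3 with a factor from the 75th percentile of mouse probes, a minimum of 30 or at 1.5-fold. For miR-206 it was 0 at 3-fold, 2 after quantile normalization, 3 with the 75th percentile, a minimum of 100, the median of spots or without spot 2 or spot 3, and 4 at 1.5-fold. A minimum of 30 or 100 acts here only through the reference probes that set the factor, since both members exceed it. The level of miR-206 in Hca-P moved to 0.460 with the median of spots, as the factor changed. The limma differences passed the threshold under none of 16 alternatives: 0.14 to 1.14 for miR-1 (adjusted p 0.447 to 0.994) and -1.28 to -0.22 for miR-206 (0.247 to 0.994), with 0.41 to 1.14 and -1.20 to -0.22 when a line was left out. The share of probes not designed for mouse at or above each member stayed within its binomial interval with the median of spots and with foreground intensity. The limma fit without a filter on dim probes could not be fitted with an intensity trend, since 311 of 414 miRNAs tie at the floor. No paired analysis was possible because the labels give no replicate numbers and each line has 1 array.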
